A study of Rattus norvegicus with 9 samples.

Results

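Of the 17145 genes in each of 2 deposited expression tables, 10 were described here: the Reg family lectins Reg3a, Reg3b, Reg3g, Reg1a and Reg4, the oxidant genes Duox2, Duoxa2 and Nos2, the iron-siderophore binder Lcn2 and the antibody transporter Pigr. They were taken by symbol, and all 10 were found in both tables. Total RNA came from the ileum, where the small intestine ends, taken 1 month after an operation. The rats were of the Otsuka Long-Evans Tokushima fatty strain. All groups share this strain, which becomes obese and diabetic and has no working cholecystokinin A receptor. The groups were a sham operation, Roux-en-Y gastric bypass (RYGB, which leads food from a small stomach pouch into the jejunum) with FDG increased, and RYGB with FDG decreased, with 3 libraries each in the labels. FDG is taken as fluorodeoxyglucose, a tracer of glucose uptake, which the labels do not spell out. The labels give no age, and do not say whether the 3 replicates are separate animals, so a p-value here measures only the spread between these samples.

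The intestinal epithelium keeps bacteria at a distance with secreted lectins, oxidants and antibody. Reg3b and Reg3g are C-type lectins that enterocytes and Paneth cells release into the lumen, Reg3g binding the peptidoglycan of Gram-positive bacteria. Both are classic targets of interleukin 22, which lymphoid cells make on microbial contact and which signals through STAT3. Duox2 is a membrane oxidase that makes hydrogen peroxide, and Duoxa2 is the partner it needs to leave the endoplasmic reticulum. Nos2 makes nitric oxide, Lcn2 takes iron-loaded siderophores away from bacteria, and Pigr carries dimeric IgA across the epithelium.

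The sequences just upstream of Reg3b and Reg3g are shown because these 2 genes lie in 1 gene cluster on rat chromosome 4, yet their levels stood in a different order in sham and in RYGB libraries. Each line holds the 250 bases before the transcription start, 5′ to 3′ on the gene's own strand, from RefSeq on build GRCr8. Reg3b is on the plus strand at chr4:112419526-112419775 and Reg3g on the minus strand at chr4:112484739-112484988. Capitals mark matches to a STAT motif (TTCNNNGAA) or a TATA motif (TATAAA), searched on both strands together with an AP-1 motif (TGANTCA).
Reg3b: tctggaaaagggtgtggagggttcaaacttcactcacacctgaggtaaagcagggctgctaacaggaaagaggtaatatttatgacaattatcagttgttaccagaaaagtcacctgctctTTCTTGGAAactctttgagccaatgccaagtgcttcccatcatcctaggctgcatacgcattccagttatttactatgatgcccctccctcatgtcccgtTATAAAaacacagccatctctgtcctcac
Reg3g: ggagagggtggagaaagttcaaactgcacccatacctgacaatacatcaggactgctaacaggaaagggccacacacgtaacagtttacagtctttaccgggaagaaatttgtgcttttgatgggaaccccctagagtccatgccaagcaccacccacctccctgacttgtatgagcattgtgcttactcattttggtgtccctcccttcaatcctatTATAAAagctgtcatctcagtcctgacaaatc
The first capitals in Reg3b are the STAT match, 129 to 121 bases before the start, and the last are the TATA match, 29 to 24 bases before it. In Reg3g the capitals are a TATA match 32 to 27 bases before the start, and the STAT letters were not in this window. Over 243 aligned bases the windows were 67.1% identical. The window of Reg3a was 66.4% identical to that of Reg3b and 67.9% to that of Reg3g. Outside the family, the Reg3b window was 57.8% identical to that of Lcn2 and 46.9% to that of Duox2. A STAT match was also in the window of Reg1a, and an AP-1 match in that of Duox2. Among the 8 members with a window, Duoxa2 and Nos2 having none, these were the STAT and AP-1 matches found. Of 33469 windows of the same length, 7.67% held the STAT letters, 6.34% the AP-1 letters and 12.9% the TATA letters. A match is a description of the letters and was not tested as a binding site.

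Values are FPKM, fragments per length of transcript and per depth of the library, so levels of different genes can be set side by side. One table, called the sham table here, compares FDG-increased RYGB with sham ileum, and the other, the RYGB table, compares both RYGB groups. They were scaled separately, with 6 libraries each, and 2 FDG-increased libraries occur in both, numbered 2 and 3 in the sham table and 1 and 2 in the RYGB table. In all, 10 different libraries were deposited, of which 4 are FDG-increased, and the comparisons are not independent of each other. The labels put every sham library in lane 7. They put FDG-increased replicates 1, 2 and 3 in lanes 7, 4 and 4, and FDG-decreased replicates in lanes 7, 4 and 5. Lane and operation therefore cannot be fully told apart in the comparison with sham. Sham replicate 1 stood apart before any member was compared: its ileal markers (Fabp6, Slc10a2, Slc51a and Fgf19) summed to 175 FPKM, against 8671 and 11847 in the other sham libraries. Its proximal intestinal markers (Lct, Gip, Gata4, Cck and Sct) summed to 419 FPKM, against 38.1 and 25.9. Pair 3 of the RYGB table also stood apart, with 30.9 and 23.5 FPKM summed over T, NK and innate lymphoid markers, against 131 to 222 in the other 4 libraries. Enterocyte markers were present in every library, with sums of 4129 to 20763 FPKM.

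Reg3g was the most abundant member in both RYGB groups and Reg3b the second. In FDG-increased libraries of the RYGB table Reg3g averaged 4609 ± 1532 FPKM (SD, n = 3) and ranked 9 by mean level among the 10739 genes tested. In sham ileum Reg3b had the higher mean, 906 ± 891 FPKM against 652 ± 648 for Reg3g (SD, n = 3 each), with overlapping ranges. Pigr followed in every group, then Reg4, then Duox2. Duoxa2 and Reg1a lay between 0.506 and 53.2 FPKM and exchanged places between groups with overlapping ranges. Nos2, Lcn2 and Reg3a were at the bottom.

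**Figure D1:**
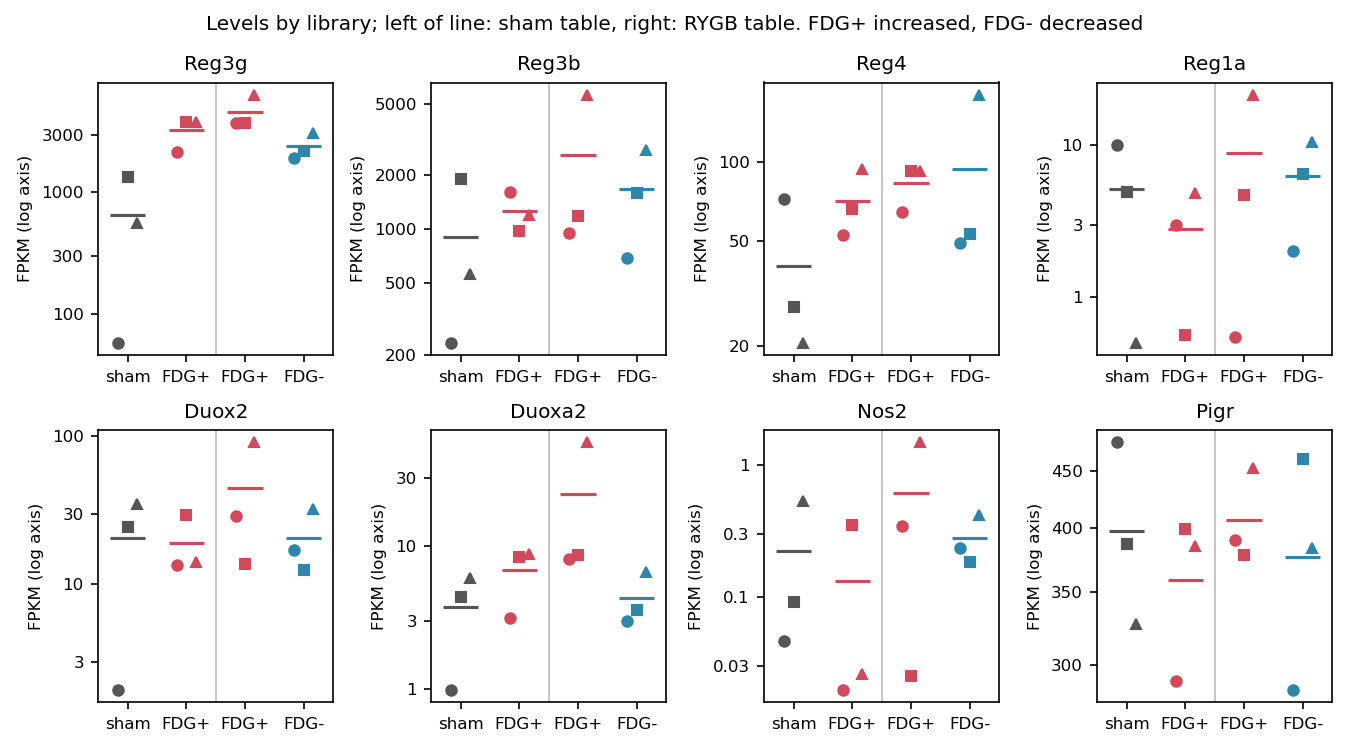
FPKM (log axis) of 8 members in each library, with circles, squares and triangles for columns 1, 2 and 3 of a group, a line at the group mean, and a grey line between the separately scaled sham table (left) and RYGB table (right). Reg3g lies at 2152 FPKM or more in FDG-increased libraries and at 1344 FPKM or less in sham libraries, while Pigr stays between 285 and 478 FPKM.

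In FDG-increased RYGB ileum Reg3g stood at 2152, 3789.6 and 3820.5 FPKM, and in sham ileum at 57.7, 1344 and 556 FPKM. The groups did not overlap, and the lowest value by far was that of sham replicate 1. The means were 3254 ± 954 and 652 ± 648 FPKM (SD, n = 3 each), 4.99-fold apart. On the log2(FPKM + 1) scale the difference was 3.16 (SE 0.960, 95% interval 0.98 to 5.33), the 14th highest of 10801 genes. With limma and Benjamini-Hochberg adjustment over all genes it did not pass 0.05 (adjusted p = 0.499). Without sham replicate 2 the difference was 4.12, and without sham replicate 1 it was 1.86, with a limma adjusted p after Benjamini-Hochberg of 0.450. Whether the ileal and proximal marker levels of that library bear on its Reg3g was not tested. Fewer cells of a type and less RNA per cell cannot be told apart in bulk tissue.

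Reg3b, which lies in the same gene cluster as Reg3g, stood at 1614, 983 and 1207 FPKM in FDG-increased and 234, 1916 and 566 FPKM in sham ileum. The groups overlapped, with sham replicate 2 the highest of all 6. Its difference was 0.97 (SE 0.667), with a limma adjusted p of 0.772 after Benjamini-Hochberg adjustment. With 1 library left out it ran from 0.25 without sham replicate 1 to 1.77 without sham replicate 2. RefSeq lists a pseudogene, Reg3b-ps1, beside Reg3b, so reads could have been split between them and the Reg3b level is uncertain to that extent.

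Reg4, a lectin of enteroendocrine and goblet cells, stood at 53.0, 66.3 and 94.2 FPKM in FDG-increased and 72.1, 28.1 and 20.7 FPKM in sham ileum. Sham replicate 1 lay among the FDG-increased libraries and the other sham libraries lay below all of them. The log2 difference was 0.97 (SE 0.470), with a limma adjusted p of 0.667 after Benjamini-Hochberg adjustment. It was 1.48 without sham replicate 1 and 0.61 without sham replicate 3. Enteroendocrine markers, 5 of 5 higher, summed to 428 to 670 FPKM in FDG-increased and 174 to 215 FPKM in sham ileum. Goblet markers, 5 of 6 higher, summed to 3555 to 6416 against 1863 to 4488 FPKM. These counts stand beside 64.7% of all genes, and the part of these markers in the Reg4 difference was not tested. Reg1a, first known as a regenerating protein of the pancreas, stood at 3.00, 0.565 and 4.82 FPKM against 9.99, 4.92 and 0.506 FPKM in sham ileum. Those values were low and overlapped throughout, and limma gave -0.48 (SE 0.710, Benjamini-Hochberg adjusted p = 0.911). The sign of that difference turned without sham replicate 1 (0.15) or FDG-increased column 2 (0.07), and it was -1.28 without sham replicate 3. Pancreatic acinar markers summed to 7.55 to 22.6 FPKM in the 6 libraries, with Prss1, Prss2, Cpa1, Cpb1, Cela2a and Pnlip at 0 in each. Reg3a was listed at 0 in all but sham replicate 2, where it was 0.189 FPKM.

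Duox2 was at 13.5, 29.5 and 14.1 FPKM in FDG-increased and 1.93, 24.5 and 35.0 FPKM in sham ileum. Sham replicate 1 was the lowest and sham replicate 3 the highest of the 6, so the groups overlapped. The log2 difference of 0.44 (SE 0.822, limma adjusted p = 0.928 after Benjamini-Hochberg) turned to -0.69 without sham replicate 1 and was 1.12 without sham replicate 3. Duoxa2 was at 3.14, 8.35 and 8.81 FPKM against 0.989, 4.42 and 5.96 FPKM in sham ileum. It too was lowest in sham replicate 1, and its difference of 0.78 (SE 0.503, limma adjusted p = 0.754 after Benjamini-Hochberg) was 0.24 without that library and 1.18 without FDG-increased column 1. Nos2 lay between 0.0198 and 0.532 FPKM in the 6 libraries, below the mean of 1 FPKM set for testing.

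Lcn2 was listed at 0 in all 3 sham libraries and in FDG-increased column 1, and at 0.189 and 0.199 FPKM in the other FDG-increased columns. Neutrophils also carry Lcn2. Their markers summed to 1.14 to 10.6 FPKM, 2 of 10 reached the level for testing, and Fpr1 and Elane were at 0 throughout. Pigr was the steadiest member, at 290.4, 399 and 385 FPKM in FDG-increased and 478, 386 and 327 FPKM in sham ileum. Its highest library exceeded its lowest 1.65-fold, against 66.2-fold for Reg3g. The log2 difference of Pigr was -0.14 (SE 0.319, 95% interval -0.87 to 0.58), with a limma adjusted p of 0.943 after Benjamini-Hochberg adjustment.

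Of the 7 members that reached a mean of 1 FPKM, 5 were higher and 2 lower in FDG-increased than in sham ileum, with a median difference of 0.78. Over all 10801 genes tested 64.7% were higher, with a median of 0.13. Limma with Benjamini-Hochberg adjustment called 0 of the 7 members, and 1, Reg3g, had an unadjusted p under 0.05. It called 4 of all genes, 0.037%, and 7.84% had an unadjusted p under 0.05. Groups lay apart, with FDG-increased the higher, for 1 of 7 members and for 10.7% of all genes.

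**Figure D2:**
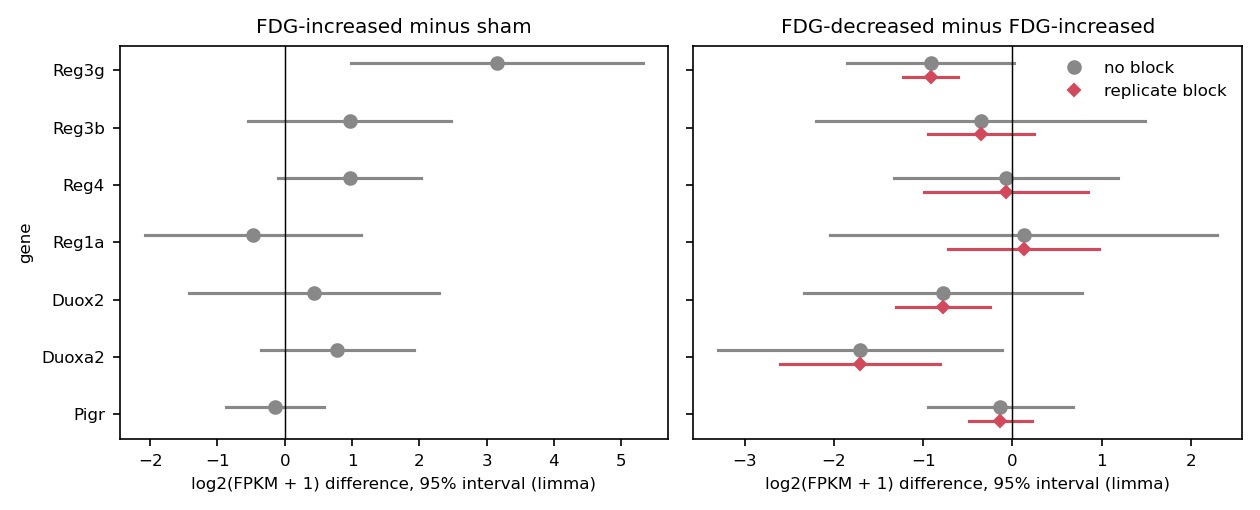
Differences in log2(FPKM + 1) from limma with their 95% intervals, for FDG-increased minus sham (left) and FDG-decreased minus FDG-increased (right); grey circles are fits without the replicate block and red diamonds fits with it, shown where the numbers pair the libraries. On the left the interval of Reg3g, 0.98 to 5.33, lies above 0. On the right the blocked interval of Reg3g, -1.22 to -0.62, lies below 0.

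In the RYGB table same-numbered libraries of the 2 groups deviated together, with correlations across genes of 0.85, 0.76 and 0.77, so fits with the pair as a block are given beside those without. Reg3g stood at 1929, 2215 and 3063 FPKM in FDG-decreased and 3705, 3744 and 6377 FPKM in FDG-increased ileum. In this table the groups lay apart, and FDG-decreased was the lower in every pair, by 0.94, 0.76 and 1.06 on the log2 scale. The FDG-increased library found in the sham table alone held 2152 FPKM there. That lay inside the FDG-decreased range on the scale of the sham table, 1971 to 3129 FPKM. In the RYGB table means were 2402 ± 590 and 4609 ± 1532 FPKM (SD, n = 3 each). The difference was -0.92 (SE 0.403), with a limma adjusted p of 1.00 after Benjamini-Hochberg without the block. With the block the SE was 0.137 and the limma adjusted p after Benjamini-Hochberg was 0.0104. That call was lost without pair 1 (limma adjusted p = 0.183 after Benjamini-Hochberg) and with quantile normalization (0.0751), where the difference was -0.91 and -0.65. Goblet markers summed to 3680, 6676 and 5948 FPKM in FDG-decreased and 4265, 6288 and 8115 FPKM in FDG-increased ileum. Of those tested 6 of 6 had a lower mean log2 level in FDG-decreased, as had 44.8% of all genes. Paneth markers summed to 19312, 29806 and 14152 against 19061, 29316 and 18328 FPKM, while Defa5, Defa7 and Defa10 were at 0. Of those tested 3 of 4 had a lower mean, beside the same 44.8% of all genes. Enterocyte markers went the other way, with sums of 20763, 16695 and 6436 FPKM in FDG-decreased against 12589, 13816 and 4129 FPKM. Of these 8 of 10 were higher and 2 lower in FDG-decreased (median 0.48), beside 55.2% of all genes higher. Regional markers differed too. Proximal intestinal markers summed to 58.2, 25.4 and 51.3 FPKM in FDG-decreased against 39.5, 15.3 and 14.1 FPKM. Of these, 4 of 5 were higher in FDG-decreased, beside 55.2% of all genes. Without Lct and Gata4, which reached 1 FPKM in 1 group alone, the count was 2 of 3 (median 0.33). Among the proximal markers Gip, an incretin of the upper intestine, stood at 4.15, 6.89 and 12.9 against 0.200, 0.887 and 2.17 FPKM. Gip and Lct passed with the block (limma adjusted p after Benjamini-Hochberg of 0.000318 and 0.0190), Lct reaching 1 FPKM on average in FDG-decreased alone. Ileal markers summed to 16089.9, 19139 and 5589.6 against 19338, 23969 and 7600.2 FPKM. Of these 0 of 4 were higher (median -0.38), beside the same 55.2% of all genes. The part of any of these markers in the Reg3g difference was not tested.

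Reg3b, in contrast, had no common direction over the pairs. It stood at 689.6, 1594 and 2769 FPKM in FDG-decreased and 961, 1183 and 5621 FPKM in FDG-increased ileum. Pair 3 was the highest in each group, and the pair differences were -0.48, 0.43 and -1.02. The fitted difference of -0.36 (SE 0.790, limma adjusted p = 1.00 after Benjamini-Hochberg) became 0.44 without FDG-increased replicate 3, 0.18 without FDG-decreased replicate 1 and -0.83 without FDG-increased replicate 1. With the block the adjusted p from limma and Benjamini-Hochberg was 0.806.

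Reg4 stood at 49.3, 53.1 and 179 FPKM in FDG-decreased and 64.8, 92.4 and 92.1 FPKM in FDG-increased ileum. FDG-decreased replicate 3 alone lay above the FDG-increased libraries, and the difference of -0.07 (SE 0.537) was -0.67 without it. It lay above 0, at 0.25 or less, without FDG-decreased replicate 1 or 2 or FDG-increased replicate 2 or 3. Reg1a stood at 2.02, 6.45 and 10.4 against 0.553, 4.73 and 21.3 FPKM. Pair 1 was the lowest and pair 3 the highest in each group, and the pair differences were 0.96, 0.38 and -0.97. The fitted difference of 0.12 (SE 0.931) ran from -0.83 without FDG-increased replicate 1 to 1.09 without FDG-increased replicate 3, and was -0.30 without FDG-decreased replicate 3. Reg3a was listed at 0.180 FPKM in FDG-decreased replicate 1 and at 0 in the other 5 libraries.

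**Figure D3:**
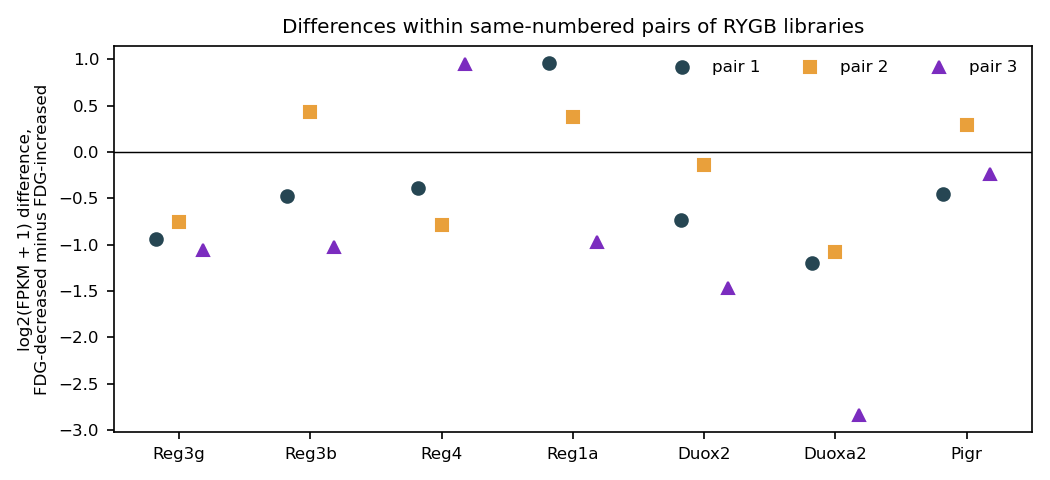
Difference in log2(FPKM + 1), FDG-decreased minus FDG-increased, within each same-numbered pair of the RYGB table, for the 7 members tested; circles, squares and triangles are pairs 1, 2 and 3. All 3 points lie below 0 for Reg3g, Duox2 and Duoxa2 and on both sides of 0 for the other 4 members.

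The peroxide-making pair went the same way as Reg3g in this comparison. Duoxa2 stood at 2.99, 3.56 and 6.60 FPKM in FDG-decreased and 8.17, 8.64 and 53.2 FPKM in FDG-increased ileum. The groups lay apart within this table, with FDG-increased replicate 3 far above the rest. The FDG-increased library found in the sham table alone held 3.14 FPKM there. That lay inside the FDG-decreased range on the scale of the sham table, 3.05 to 6.74 FPKM. In the RYGB table Duoxa2 differed as follows. The difference was -1.70 (SE 0.683, limma adjusted p = 1.00 after Benjamini-Hochberg) and did not pass with the block either (SE 0.362, limma adjusted p = 0.155 after Benjamini-Hochberg). Without FDG-increased replicate 3 it was -0.86. Duox2 stood at 17.0, 12.5 and 32.1 against 28.8, 13.8 and 90.9 FPKM, lower in FDG-decreased within each pair although the groups overlapped. Its difference was -0.78 (SE 0.670), -0.07 without FDG-increased replicate 3 and -1.39 without FDG-increased replicate 2. With the block the limma adjusted p of Duox2 after Benjamini-Hochberg was 0.244. The level of Duoxa2 relative to Duox2 was 0.176, 0.286 and 0.205 in FDG-decreased libraries and 0.283, 0.625 and 0.585 in FDG-increased libraries of this table, a ratio chosen after its values were seen. It was 0.234 in the FDG-increased library found in the sham table alone, inside the FDG-decreased range, and 0.512, 0.180 and 0.170 in sham libraries. Nos2 lay between 0.0255 and 1.48 FPKM, with FDG-increased replicate 3 the highest there too.

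Lcn2 lay between 0 and 0.195 FPKM, listed at 0 in FDG-decreased replicates 1 and 2 and FDG-increased replicate 3. Pigr stood at 285, 461 and 383 FPKM in FDG-decreased and 390.0, 377 and 453 FPKM in FDG-increased ileum, with overlapping groups. Its difference was -0.13 (SE 0.352, 95% interval -0.95 to 0.68), and 0.05 without FDG-decreased replicate 1.

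Of the 7 members tested, 6 were lower and 1 higher in FDG-decreased ileum, with a median of -0.36, while over 10739 genes 44.8% were lower and the median was 0.02. Limma with Benjamini-Hochberg adjustment called 0 members and 0% of all genes without the block. At an unadjusted p under 0.05 there were 1 member, Duoxa2, and 1.02% of all genes. With the block it called 1 of 7 members, Reg3g, and 1.14% of all genes. In the RYGB table groups lay apart, with FDG-decreased the lower, for 2 of 7 members, Reg3g and Duoxa2, against 1.26% of all genes. For these members the FDG-increased library found in the sham table alone lay inside the rescaled FDG-decreased range. The members lower in all 3 pairs were 3 of 7, against 12.7% of all genes. The shared FDG-increased libraries enter both comparisons, so Reg3g being above sham in one and above FDG-decreased in the other is not a pair of independent results.

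The order of Reg3b and Reg3g within a library does not depend on how a table was scaled. It does depend on the Reg3b level, which is uncertain if reads were split with Reg3b-ps1, so an order near 1 is uncertain too. Reg3b was 4.06, 1.43 and 1.02 times Reg3g in the sham libraries. It was 0.750, 0.259 and 0.316 times Reg3g in the FDG-increased libraries of the sham table, and 0.881 times in the FDG-increased library that the sham table lacks. In FDG-decreased libraries the ratio was 0.358, 0.720 and 0.904. Reg3b thus exceeded Reg3g in 3 of 3 sham libraries and in 0 of 7 RYGB libraries, although sham replicate 3 was close to 1. Within the sham table the mean log2 ratio was 0.85 in sham and -1.34 in FDG-increased ileum, with an exact two-sided permutation p of 0.1, the smallest that 3 against 3 can give. Without sham replicate 1 the sham mean was 0.27. This ratio was chosen after its values were seen, with the groups already apart. The permutation test could then give no other p, so it adds no support.

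**Figure D4:**
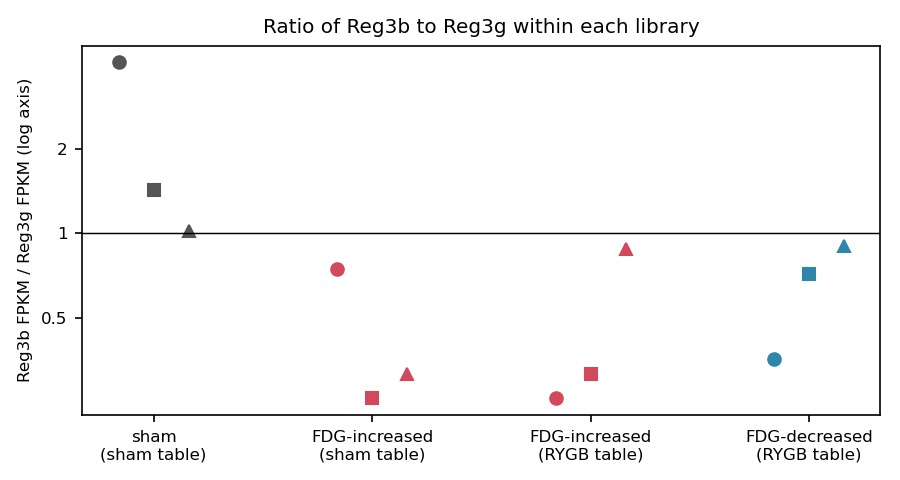
Ratio of Reg3b to Reg3g FPKM (log axis) in each library of the 2 tables, with circles, squares and triangles for columns 1, 2 and 3 and a line at 1. The 3 sham libraries lie between 1.02 and 4.06, and all RYGB libraries lie below 1; 2 FDG-increased libraries appear in both tables.

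FDG-decreased and sham ileum were not in 1 table, so their values stand side by side without a test. Reg3g was at 1929 to 3063 FPKM in FDG-decreased and 57.7 to 1344 FPKM in sham ileum, the 1 member of 10 whose ranges did not meet. With FDG-decreased values on the scale of the shared libraries, ranges did not meet, FDG-decreased being the higher, for 3.43% of the 10652 genes at a mean of 1 FPKM or more in both tables. Rescaled through the shared libraries, the FDG-decreased range was 1971 to 3129 FPKM. Duox2 at 12.5 to 32.1 FPKM lay inside its sham range of 1.93 to 35.0 FPKM, and Pigr at 285 to 461 FPKM overlapped its sham range of 327 to 478 FPKM.

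Genes of interleukin 22, interleukin 17 and STAT3 signalling, upstream of the lectins, were 12 of 14 higher in FDG-increased than in sham ileum (median 0.30), beside 64.7% of all genes. Limma with Benjamini-Hochberg adjustment called 0 of them. Of the T, NK and innate lymphoid markers 9 of 10 were higher there too (sums of 125 to 218 against 47.0 to 90.6 FPKM, Il7r at 0). Of the macrophage and dendritic markers 5 of 7 were higher (94.2 to 145 against 53.4 to 66.8 FPKM). Of the B and plasma cell markers 2 of 3 were higher, with overlapping sums (13.3 to 24.4 against 8.28 to 21.0 FPKM). These marker counts also stand beside the 64.7% of all genes. Their part in these differences was not tested. In FDG-decreased against FDG-increased ileum 6 of 15 signalling genes were higher (median -0.05), beside 55.2% of all genes. Without Il22, which was tested only because of its FDG-increased level, the count was 6 of 14 (median -0.03). In that comparison limma with Benjamini-Hochberg adjustment called 0 without the block and 1, Socs3, with it. With the block 1.14% of all genes were called. Socs3, an inhibitor that STAT3 induces, stood at 9.46, 4.04 and 4.33 FPKM in FDG-decreased and 22.4, 16.8 and 26.3 FPKM in FDG-increased ileum. The groups lay apart in every pair. The difference was -1.78 (SE 0.356), with a limma adjusted p after Benjamini-Hochberg of 1.00 without the block and 0.00555 with it. With the block Socs3 also passed with any 1 pair left out and with either other scaling. The limma adjusted p after Benjamini-Hochberg was 0.0211 or less in each. The fits with a pair left out have 1 residual degree of freedom, so they say little about how stable the call is. In sham ileum Socs3 stood at 4.05, 7.76 and 14.0 FPKM, against 14.4, 22.9 and 17.2 FPKM in FDG-increased libraries of that table, a difference of 1.11 (SE 0.393, limma adjusted p = 0.562 after Benjamini-Hochberg).

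Il22 itself stood at 0.353, 0 and 0 FPKM in FDG-decreased and 0.367, 1.28 and 4.82 FPKM in FDG-increased ileum. The highest value was in FDG-increased replicate 3, which also held the most Duox2, Duoxa2 and Nos2 of the 6 libraries. Il22 reached a mean of 1 FPKM only through that library, so its difference of -1.25 (SE 0.498) is given as a description. In the same library T, NK and innate lymphoid markers summed to the lowest value of the 6, 23.5 FPKM. Jak1, a kinase of these receptors, and Il6st, a receptor chain, were the most abundant genes of the list. Jak1 averaged 87.1 ± 43.6 FPKM (SD, n = 3) in FDG-decreased ileum and Il6st 57.5 ± 33.5 FPKM (SD, n = 3).

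**Figure D5:**
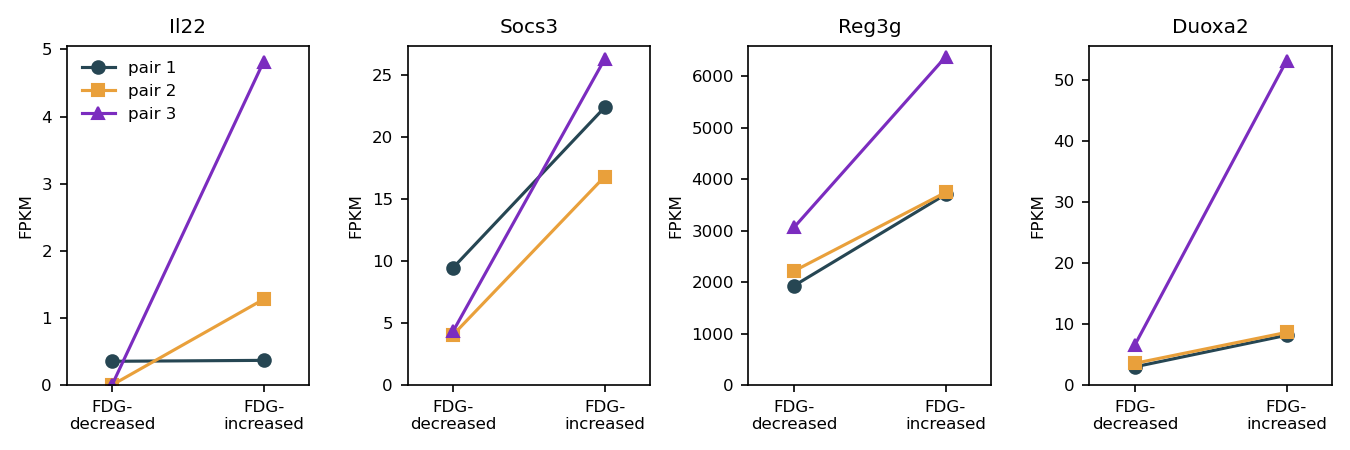
FPKM (linear axes from 0) of Il22, Socs3, Reg3g and Duoxa2 in the 6 libraries of the RYGB table, with a line joining the FDG-decreased and FDG-increased library of each pair. Socs3, Reg3g and Duoxa2 go up from FDG-decreased to FDG-increased in all 3 pairs, and Il22 differs little in pair 1 (0.353 and 0.367 FPKM).

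Microbial sensing genes were 8 of 10 higher in FDG-increased than in sham ileum (median 0.27), where 64.7% of all genes were higher, or 8 of 9 without Tlr2, which reached 1 FPKM in 1 group alone. They were 1 of 10 higher in FDG-decreased than in FDG-increased ileum (median -0.17), where 55.2% of all genes were higher. Limma with Benjamini-Hochberg adjustment called 0 of them in either comparison, with or without the block. Myd88, the adaptor of most Toll-like receptors, stood at 37.8 ± 1.14 FPKM in FDG-increased against 21.2 ± 1.38 FPKM in sham ileum (SD, n = 3 each), a difference of 0.80 (SE 0.248, limma adjusted p = 0.511 after Benjamini-Hochberg). Between the RYGB groups its difference was -0.09. Ly96, which lets Tlr4 bind lipopolysaccharide, stood at 31.7 ± 19.0 against 11.8 ± 3.43 FPKM (SD, n = 3 each), a difference of 1.22 (SE 0.427).

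Other antimicrobial proteins were 8 of 8 higher in FDG-increased than in sham ileum (median 0.87) and 0 of 7 higher in FDG-decreased than in FDG-increased ileum (median -0.41), beside 64.7% and 55.2% of all genes. Of the 8, S100a8 was tested only through 1 FDG-increased library at 3.56 FPKM, and without it the count was 7 of 7 (median 0.92). By limma with Benjamini-Hochberg adjustment 0 of these differences passed, with or without the block. Zg16, a goblet cell lectin that binds Gram-positive bacteria, stood at 3271 ± 337 FPKM in FDG-increased against 1288 ± 699 FPKM in sham ileum (SD, n = 3 each), a log2 difference of 1.48 (SE 0.419, limma adjusted p = 0.472 after Benjamini-Hochberg). In FDG-decreased ileum Zg16 stood at 1639, 2183 and 1349 FPKM, below its FDG-increased partner in each pair (3056, 3582 and 1585 FPKM). Pla2g2a, a Paneth cell phospholipase, differed by 0.81 (SE 0.472) and Slpi, a protease inhibitor, by 1.28 (SE 0.514) between FDG-increased and sham ileum. S100a9, a calprotectin subunit of neutrophils, was low at 1.32 ± 1.13 FPKM in FDG-decreased and 2.79 ± 2.27 FPKM in FDG-increased ileum (SD, n = 3 each). Paneth markers, 4 of 4 higher, summed to 19498 to 30084 FPKM in FDG-increased and 7350 to 17384 FPKM in sham ileum, where sham replicate 1 was the lowest. Their part in the levels of these proteins or of Reg3g was not tested.

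Oxidant enzymes and their partners other than the members were 9 of 14 higher in FDG-increased than in sham ileum (median 0.34) and 3 of 12 higher in FDG-decreased than in FDG-increased ileum (median -0.12). The first count is near the 64.7% of all genes higher there, and the second stands beside 55.2%. In the first, Nos3 and Arg1 reached 1 FPKM in 1 group alone, and without them the count was 9 of 12 (median 0.38). Limma with Benjamini-Hochberg adjustment called 0 in both. Gpx2, an epithelial glutathione peroxidase that removes hydrogen peroxide, stood at 432, 331 and 544 FPKM in FDG-decreased and 455, 429.8 and 1291 FPKM in FDG-increased ileum, so that FDG-increased replicate 3 was again the highest. Rac2, a small GTPase of the leukocyte oxidase, stood at 34.6 ± 1.45 against 20.2 ± 8.24 FPKM in sham ileum (SD, n = 3 each). Duox1 and Duoxa1, the sister genes of Duox2 and Duoxa2, did not reach 1 FPKM on average in either table.

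Genes of the IgA axis, which feeds Pigr its cargo, were 7 of 10 higher in FDG-increased than in sham ileum (median 0.17), near the 64.7% of all genes. They were also 7 of 10 higher in FDG-decreased than in FDG-increased ileum (median 0.16), beside 55.2% of all genes, or 6 of 9 (median 0.14) without Ccr10, which reached 1 FPKM in 1 group alone. Limma with Benjamini-Hochberg adjustment called 0 of them. Ccl25, the chemokine that draws plasma cells and T cells to the small intestine, stood at 447 ± 134 FPKM in FDG-increased against 239 ± 7.90 FPKM in sham ileum (SD, n = 3 each). Its difference was 0.86 (SE 0.329, limma adjusted p = 0.605 after Benjamini-Hochberg). Mzb1, a chaperone of plasma cells, stood at 18.1, 8.34 and 4.43 FPKM in FDG-decreased and 8.58, 7.20 and 3.29 FPKM in FDG-increased ileum. Of the receptors and partners of the members, Extl3, the receptor proposed for Reg proteins, stood at 9.53 ± 0.133 FPKM in FDG-increased and 10.6 ± 0.687 FPKM in sham ileum (SD, n = 3 each).

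Genes of like pattern were sought over the 12 columns, after log2(FPKM + 1) was centred in each table, by the root mean square difference among 10652 genes. The nearest to Reg3g were Fam3d at 0.79, Spink3 at 0.84 and Hspa1b at 0.91, where Reg3g itself spread by 1.53. Fam3d, a secreted gut protein, stood at 11.3, 48.6 and 47.3 FPKM in sham libraries and 62.0 to 104 FPKM in the FDG-increased libraries of that table. Hspa1b, an inducible heat shock protein, stood at 0.985, 11.5 and 13.0 FPKM in sham and 90.2 to 204 FPKM in those FDG-increased libraries. Reg3b ranked 15, Duox2 41 and Duoxa2 53 in likeness to Reg3g, and Reg4 5970, Pigr 6976 and Reg1a 10543. The nearest to Duox2 was Duoxa2 at 0.66, followed by Plet1 at 0.72 and the hexokinase Hk2 at 0.73, where Duox2 itself spread by 1.08. Reg3g ranked 2746 in likeness to Duox2, at 1.14, more than the spread of Duox2 itself. Duoxa2 is the next gene to Duox2 on rat chromosome 3 in RefSeq. Pigr spread by 0.23 only, and its nearest genes were Sec16a, LOC294154 and Ganab, each at 0.13. The 12 columns share libraries and depth, and these figures describe likeness over them only. Reg3g, Reg3b, Duox2, Duoxa2, Fam3d, Spink3 and Hspa1b were each lowest in sham replicate 1, the library that stood apart by its regional markers. The part of that library in these ranks was not tested.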

How the data were processed

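Titles and treatment labels gave the groups of the rat ileum libraries. According to the protocols in the labels, RNA was extracted with a Qiagen kit from tissue frozen on dry ice and made into stranded libraries after ribosomal depletion. The authors deposited FPKM per gene and library in 2 tables, each with its own scaling. The submitters' processing notes list bcl2fastq 1.8.4, STAR 2.6.0a, Cufflinks 2.2.1, Cuffdiff and DESeq2 1.24.0, without settings or order. They also list hg19, a human build, while the symbols are those of rat, so no coordinates come from the files. FPKM carries no read counts, so the depth behind a value is unknown and counting intervals cannot be set. The sum of FPKM per library was 465697 to 864511, with 10332 to 10892 genes at 1 FPKM or more.

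Genes that averaged 1 FPKM or more in a table's 6 libraries were fitted with limma 3.58.1 in R 4.3.3 on log2(FPKM + 1). Variances were moderated with an intensity trend and robustly, and p-values were adjusted by Benjamini-Hochberg over all genes at a threshold of 0.05. The log2 scale with a pseudocount understates changes of low genes. The fit without the block was tested on simulated data that held no pairs. The replicate block was not tested in this way. Columns 2 and 3 of the FDG-increased group in the sham table matched columns 1 and 2 in the RYGB table within 1% for 99.985% and 99.94% of genes after a factor of 1.02. The pairing of the RYGB table comes from the labelled replicate numbers, whose basis is not stated, and pairs also share lanes in part. There the deviations of libraries of unlike numbers correlated at -0.13 to -0.59. No test was run across tables. Promoter windows were matched by symbol to RefSeq (GRCr8).

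All members were named. From each pathway list the genes past the threshold were named, at most 4, and otherwise the 2 with the highest mean and the 2 with the largest difference, of which some are given here. Other genes named beside these were chosen after their values were seen. Members and lists were chosen with earlier results of these data known. Alternatives were another pseudocount, no level filter, equal medians, quantile normalization, plain variances, a replicate block, lane 7 alone and leaving out libraries or pairs. The fits that combine the block with a left-out pair, another scaling or another pseudocount were chosen after the data were seen. The number of sample columns left unused was 0.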

Additional observations from a re-analysis of the deposited data

How the results depend on the processing

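All counts are from limma with Benjamini-Hochberg adjustment. FDG-increased against sham: 0 members were called in the 12 other settings without a block, and in the block fits with all pairs. Leaving out a pair under the block gave 1 to 1 members, Reg3g without pair 1 or 2 and Reg1a without pair 3. All genes called were 4, but 1 with a pseudocount of 0.1, 0 with no level filter, 1 with equal medians, 0 with quantile normalization and 0 to 13 without 1 library. In this table the replicate numbers share only a number (correlations 0.35, -0.50 and -0.25), and the replicate block called 39 genes, 28 with equal medians, 1 with quantile normalization, 41 with a pseudocount of 0.1 and 77 to 112 without 1 pair; with it Reg3g had an adjusted p of 0.0656.

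FDG-decreased against FDG-increased: members called were 0 in the 11 other settings without a block. With the replicate block 1 was called, also with equal medians and with a pseudocount of 0.1, but 0 with quantile normalization and 0 to 3 without 1 pair, where 1 residual degree of freedom is left. All genes called were 0, or 0 to 1 without 1 library. The replicate block called 122, with equal medians 101, quantile normalization 90, a pseudocount of 0.1 123, and 35 to 415 without 1 pair (346 without pair 3). The cause of these moves was not tested.

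Over 19 settings the 7 members kept the sign of the difference from sham in 125 of 133 fits, and over 18 settings in 110 of 126 between the RYGB groups. Reg3g and Duoxa2 kept theirs in each. Lane 7 alone, among those settings, sets 1 FDG-increased library against 3 sham and takes it to vary like them; its lane is that of the matching library of the RYGB table. Lane 7 alone was not run for the RYGB table, which has 1 library a group there.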
